A study of Mus musculus with 24 samples.

Results

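The comparison set 12 whole-heart RNA-seq libraries from mice with Fkbp1a, the gene of FKBP12, deleted by a muscle or cardiomyocyte Cre against 12 control libraries, as 1 contrast that averages 2 deletion genotypes and 2 control genotypes. All 24 libraries of the series entered it, chosen by genotype label alone. FKl/l MCK+ mice carry floxed Fkbp1a, read from l/l in the label as both alleles, and a Cre recombinase driven by the muscle creatine kinase promoter. FKl/l MHC+ mice carry the same floxed alleles and Cre driven by the alpha myosin heavy chain promoter of cardiomyocytes. The controls were FKl/l, floxed without Cre, and MHC CRE Only, which carries the alpha myosin heavy chain Cre and no floxed allele. There were 2 batches and 6 libraries per genotype, 3 from either batch, and FKl/l 1-2, for example, is library 2 of batch 1. Per the series' design text, the alpha myosin heavy chain promoter acts from embryonic day 9 and the muscle creatine kinase promoter from embryonic day 13. The sources used here give no strain, age or sex. Whether every library is a different animal is not stated in the labels, and p-values therefore reflect library-to-library spread. The alpha myosin heavy chain Cre is on both sides of the contrast, and the muscle creatine kinase Cre is on the deletion side alone. The floxed allele is in both deletion genotypes and in 1 of the 2 controls, so an effect of the floxed allele or of the chromosome around it is partly confounded with the deletion.

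FKBP12 is a small cytosolic prolyl isomerase of the immunophilin family and the binding partner of the drugs FK506 and rapamycin. It binds ryanodine receptors, the calcium release channels of the sarcoplasmic reticulum, and the cytoplasmic domain of type I receptors of the transforming growth factor beta and bone morphogenetic protein (BMP) family. Bound to FK506 it inhibits calcineurin, and bound to rapamycin it inhibits mTOR.

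Fkbp1a (ENSMUSG00000032966, chr2:151542483-151561692 of GRCm38, plus strand) was measured first, as a check of the labels. Its level in CPM (counts relative to the scaled library size) ran from 43.5 through a median of 59.7 to 81.1 in the 12 deletion libraries, and from 81.8 through 127 to 147 in the 12 controls. The groups did not overlap, but the lowest control library, MHC CRE Only 1-3, lay next to the highest deletion library, FKl/l MCK+ 1-1. The other 11 controls had 130 CPM ± 8.18 (SD, n = 11). The pooled log2 fold change was -1.03 (standard error, SE, 0.0883, adjusted p = 1.67e-07), which left 48.9% of the control level. With MHC CRE Only 1-3 and 2 libraries high in airway transcripts (below) left out it was -1.09. In bulk tissue, the remaining transcript in cells without Cre and in cardiomyocytes cannot be told apart, nor can fewer cells of a type and less RNA per cell for any gene here. The FKl/l MCK+ mean was 65.1 CPM ± 10.7 and the FKl/l MHC+ mean 59.1 CPM ± 12.6 (SD, n = 6 each), and the difference between them was -0.14 on the log2 scale, with a 95% interval of -0.40 to 0.11 (adjusted p = 0.638). The paralog Fkbp1b, which encodes FKBP12.6, the other FKBP that binds ryanodine receptors, was low, with genotype means up to 0.507 CPM, and did not pass the test.

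Library depth was 27799403 to 40412640 gene counts. The cardiomyocyte markers summed to between 52600 and 67900 CPM in every library, and 0 of 12 were called by edgeR, DESeq2 or limma voom (1 at an unadjusted p under 0.05). Airway and lung epithelium markers were high in MHC CRE Only 2-3, at a sum of 1390 CPM, and FKl/l 1-1, at 594 CPM, where the other 22 libraries had 87.1 to 215 CPM. All 10 airway markers tested had a negative pooled log2 fold change and 9 had an unadjusted p under 0.05, with none called by edgeR, DESeq2 or limma voom. The library labelled MHC CRE Only 1-3 goes partly against its label in its low Fkbp1a, and whether it is correctly labelled was not settled. Pooled calls lost without these 3 libraries are therefore named below, and calls gained without them are given as counts.

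Of 16018 genes tested across all libraries, 65 (0.406%) were called at an adjusted p under 0.05, 41 higher (0.256%) and 24 lower (0.15%) in the deletions. The count was 105 without MHC CRE Only 1-3, 40 without FKl/l MHC+ 1-3, 42 without FKl/l 1-2, 43 without FKl/l MCK+ 2-3 and 143 with DESeq2. At an unadjusted p under 0.05 there were 1468 genes (9.16%). The log2 fold change was positive in 7673 genes (47.9%) and negative in 8345 (52.1%). Most changes were small: the median size among the called genes was 0.45 on the log2 scale, against 0.07 over all genes tested, and 24 were at least 1.5-fold. At least 2-fold higher were Kcne1, Edn3 and Kctd16, and at least 2-fold lower were Fkbp1a, Slc52a3 and D030034A15Rik. Kctd16 had at most 1.1 CPM in any library and D030034A15Rik at most 0.957 CPM. Their calls were lost in 9 and 18 of 24 leave-one-out fits and against either control genotype alone. That of D030034A15Rik was also lost with limma voom (adjusted p = 0.129). All 65 had the same sign in both batches. They were selected on an effect that averages the batches, which favours a shared sign, so this is no separate check. Of all genes tested, 2 (0.0125%) had no overlap between the 12 deletion and 12 control libraries, Fkbp1a below and Kcne1 above.

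**Figure D1:**
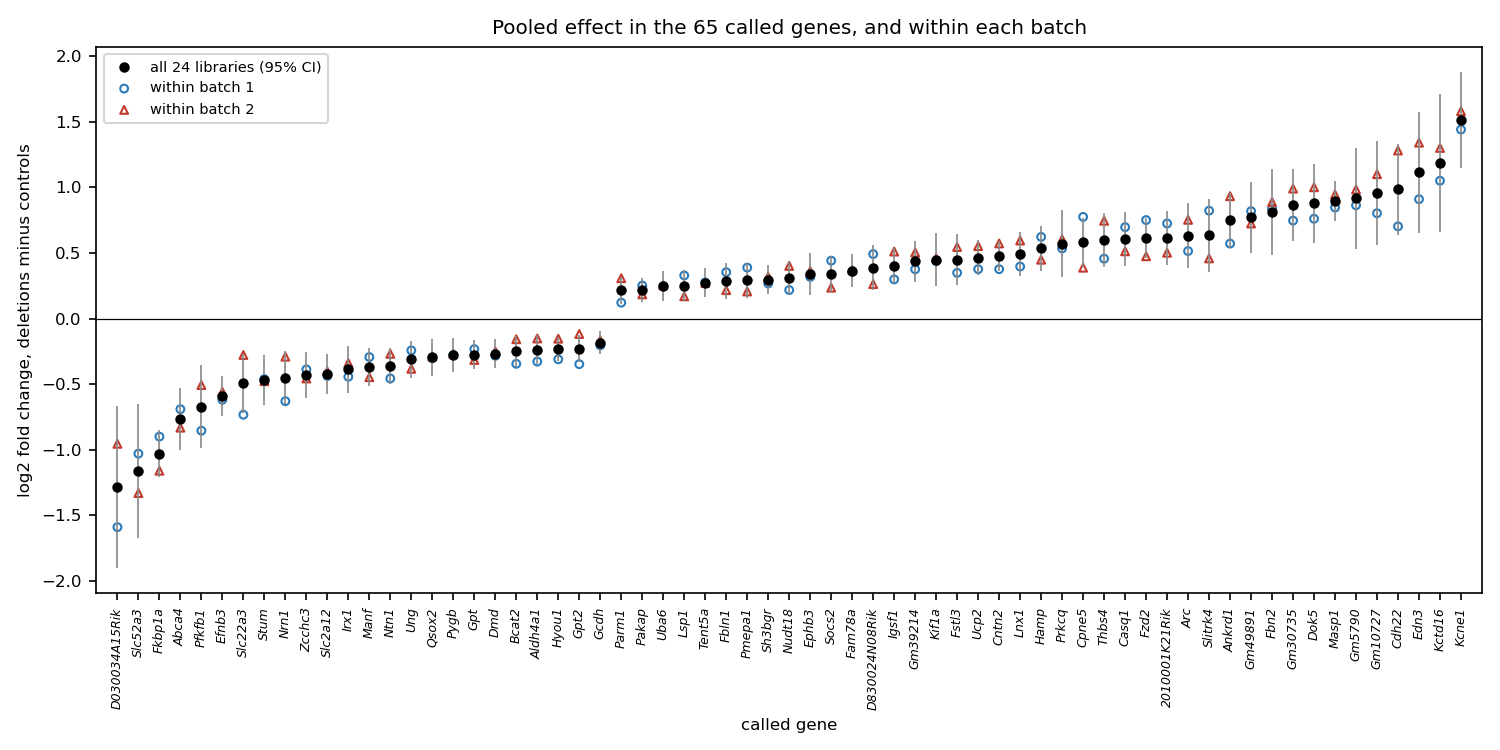
Pooled log2 fold change (deletions minus controls, y axis) of each of the 65 called genes (x axis, ordered by that value), with its 95% confidence interval as a bar and the values within batch 1 (circles) and batch 2 (triangles). The 24 lower genes are on the left and the 41 higher on the right, and Kcne1 at 1.52 is the highest. Both batch values lie on the same side of 0 in all 65, which their selection on both batches together favours.

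Kcne1 (ENSMUSG00000039639, chr16:92345982-92359468, minus strand) encodes the auxiliary subunit minK of the potassium channel that carries the slow delayed rectifier current. Its level was 3.8, 7.21 and 13 CPM (lowest, median and highest) in the deletions and 1.27, 2.87 and 3.68 CPM in the controls. Every deletion library was above every control, the lowest, FKl/l MCK+ 1-1, only narrowly. The rise was 2.86-fold (1.52 on the log2 scale, SE 0.178, adjusted p = 5.73e-05). FKl/l MCK+ averaged 7.66 CPM ± 3.32 and FKl/l MHC+ 7.83 CPM ± 2.61 (SD, n = 6 each), and the interval of the log2 difference between them was -0.49 to 0.50.

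Cntn2 (chr1:132509427-132543256, minus strand) encodes contactin 2, an adhesion protein known in the heart as a marker of Purkinje and other conduction cells. It had 16, 22 and 26 CPM in the deletions and 13.6, 15 and 19.3 CPM in the controls. FKl/l MCK+ 2-1, at 16 CPM, was the only deletion library inside the control range. It rose by 0.47 (SE 0.0564, adjusted p = 1.93e-05). Against 0.256% of all genes tested called higher, Cntn2 and Kcne1 were the 2 called on a list of 13 tested conduction markers. Its other 11 members were not called, among them the pacemaker channel Hcn4 (log2 fold change -0.12, adjusted p = 0.709), the connexin Gja5 (0.01, adjusted p = 0.994) and the transcription factor Tbx3 (0.00, adjusted p = 0.996). The list's median was 0.04, against 0.00 over all genes tested, and its summed level was 250 to 317 CPM in the deletions and 246 to 289 CPM in the controls.

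Casq1 (chr1:172209894-172219868, minus strand) encodes the skeletal muscle calsequestrin, which buffers calcium in the sarcoplasmic reticulum. It had 12.8, 16.7 and 26.2 CPM in the deletions and 9.16, 11.2 and 14.8 CPM in the controls, with 9 of 12 deletion libraries above every control. It rose by 0.61 (SE 0.0991, adjusted p = 0.00193). Among the 39 genes of calcium release and uptake it was the 1 called, against 0.406% of all genes tested. The next were Atp2a1, the fast skeletal calcium pump (0.55, adjusted p = 0.127), and Cacna1h, a T-type calcium channel (-0.27, adjusted p = 0.217); the list's median was -0.01. Of 32 tested genes of potassium and sodium channels and proteins that bear on excitability, Kcne1 and Cntn2 were called and 30 were not. The share over all genes tested was again 0.406%, and the list's median was -0.03. Skeletal muscle markers, which a whole-heart sample may hold from other muscle, summed to 2550 to 4980 CPM in the deletions and 2410 to 4380 CPM in the controls, 5 of 7 tested had a positive value and none was called by edgeR or limma voom (2 at an unadjusted p under 0.05; DESeq2 called Mylpf). Their part in the Casq1 result was not tested. Casq1 was not called against MHC CRE Only alone (adjusted p = 0.079).

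**Figure D2:**
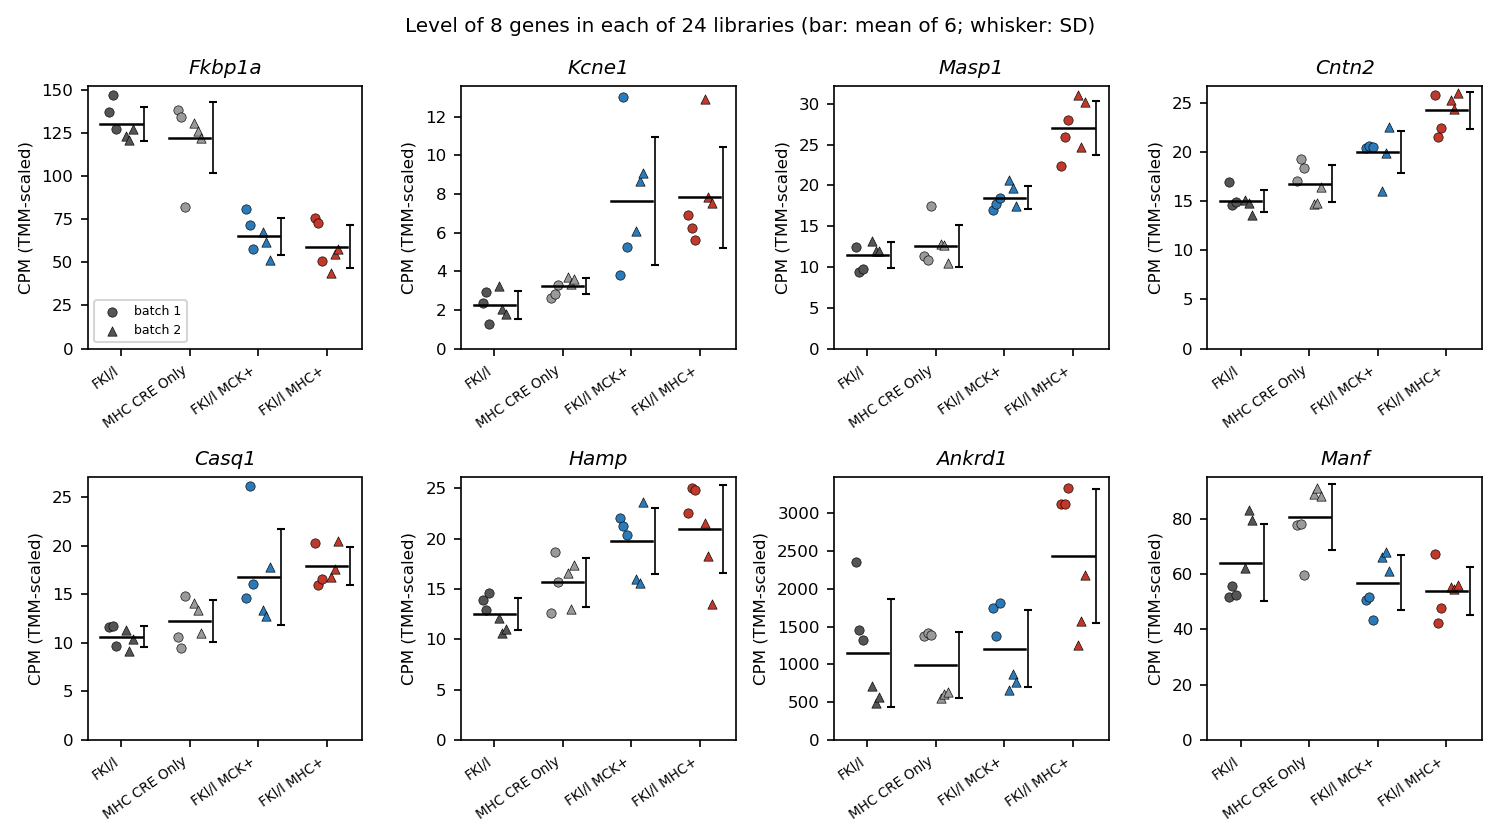
Level of 8 genes (CPM on scaled library sizes, y axes from 0) in each of the 24 libraries by genotype (x axes), circles for batch 1 and triangles for batch 2, with the mean of 6 libraries as a bar and the SD as a whisker. Fkbp1a is at 43.5 to 81.1 in the 2 deletion genotypes; Kcne1 is above every control in all 12 deletion libraries; Ankrd1 is high in FKl/l MHC+ and close to the controls in FKl/l MCK+.

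Masp1 (chr16:23449417-23520815, minus strand), which encodes a protease that starts the lectin arm of complement, had the smallest p of all genes. Its level was 17, 21.5 and 31.1 CPM in the deletions and 9.4, 12 and 17.5 CPM in the controls. MHC CRE Only 1-3 was the only control that reached the deletion range. The rise was 1.86-fold (0.89 on the log2 scale, SE 0.0747, adjusted p = 2.47e-08), and 0.96 on that scale without the 3 libraries. It was higher in FKl/l MHC+ (27 CPM ± 3.31) than in FKl/l MCK+ (18.5 CPM ± 1.39; SD, n = 6 each), a log2 difference of 0.55 (adjusted p = 0.00466), and both were above both controls (11.5 and 12.6 CPM). Masp1 was the 1 called of 23 complement genes tested, against 0.406% of all genes tested. The list's median was 0.00.

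Among 49 genes of transforming growth factor beta and BMP signalling, 2 rose, against 0.256% of all genes tested, and the median was 0.01. Hamp (chr7:30942368-30944032, minus strand) encodes hepcidin, the peptide that lowers iron export from cells, and is a BMP target in liver. It had 13.5, 21.4 and 25 CPM in the deletions and 10.6, 13.4 and 18.7 CPM in the controls, with 8 of 12 deletion libraries above every control. It rose by 0.53 (SE 0.0823, adjusted p = 0.000822), with means of 19.8 CPM ± 3.26 (FKl/l MCK+) and 20.9 CPM ± 4.39 (FKl/l MHC+; SD, n = 6 each); against MHC CRE Only alone it was not called (adjusted p = 0.117). Fstl3, a secreted inhibitor of activins and myostatin, rose by 0.45 (SE 0.0942, adjusted p = 0.0203). Its call was lost against FKl/l alone (adjusted p = 0.051) and against MHC CRE Only alone (adjusted p = 0.149). The classic BMP targets Id1 (-0.19, adjusted p = 0.473) and Id3 (-0.11, adjusted p = 0.437) did not pass the test. Pmepa1, a membrane protein that restrains SMAD signalling, was outside the list and is named after its value was seen. It rose by 0.29 (SE 0.0644, adjusted p = 0.0312), a call lost in 14 of 24 leave-one-out fits, under the replicate block (adjusted p = 0.0648) and against either control alone.

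The promoter of Hamp is shown because this gene rose where Id1 and Id3 were not called. The sequence is that of RefSeq, GRCm38.p6, from 250 bases before to 50 after the annotated start, chr7:30943980-30944279, minus strand. Capitals mark the letters GGCGCC, known as a BMP response element, at -109 to -104 from the start.
Hamp: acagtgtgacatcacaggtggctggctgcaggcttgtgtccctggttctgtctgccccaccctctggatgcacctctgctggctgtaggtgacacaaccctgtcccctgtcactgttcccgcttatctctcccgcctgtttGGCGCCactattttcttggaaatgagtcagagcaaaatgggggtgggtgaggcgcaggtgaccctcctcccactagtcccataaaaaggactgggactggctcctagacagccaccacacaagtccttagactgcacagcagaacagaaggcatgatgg
These letters, searched on both strands (they read the same on each), were in 11.9% of all 32851 windows of this length. Counted by gene, in any of its windows, they were in 23.6% of the 11502 genes tested that had a window. The same count gave 6 of the 38 called genes with a window (15.8%). The match is a description of the window only.

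Among stress genes of the heart, Ankrd1 and Edn3 rose, each with the larger change in FKl/l MHC+. Ankrd1 (chr19:36111961-36120099, minus strand) encodes a stretch-responsive ankyrin-repeat protein bound to titin. It had 668, 1660 and 3330 CPM in the deletions and 493, 1020 and 2350 CPM in the controls, ranges that overlapped widely, and batch 1 was higher in every genotype. Within batch 1, FKl/l MHC+ had 3120 to 3330 CPM, against 1330 to 2350 CPM in the controls and 1380 to 1810 CPM in FKl/l MCK+. Within batch 2 the values were 1260 to 2190, 493 to 716 and 668 to 874 CPM. The pooled rise was 0.75 (SE 0.102, adjusted p = 0.000239). It was made of 1.35 in FKl/l MHC+ against MHC CRE Only and 0.15 in FKl/l MCK+ against FKl/l, and the deletions differed by 1.04 (adjusted p = 0.000238). Edn3, which encodes the vasoactive peptide endothelin 3, had 1.16, 2.89 and 7.16 CPM in the deletions and 0.541, 1.14 and 3.09 CPM in the controls. It rose by 1.11 (SE 0.222, adjusted p = 0.0177), and the deletions differed by 1.36 (adjusted p = 0.0199). Of 36 genes in the fetal and stress program list these 2 were called, against 0.406% of all genes tested. The list's median was 0.16 (0.28 for FKl/l MHC+ against MHC CRE Only and 0.03 for FKl/l MCK+ against FKl/l). Called higher in FKl/l MHC+ than in FKl/l MCK+ were 11 of the 36, against 158 of all genes tested (0.986%). Myh7, the slow myosin heavy chain, had 136 CPM ± 61.4 in the deletions and 89.2 CPM ± 48.2 in the controls (SD, n = 12 each; adjusted p = 0.425). Neutrophil markers, which lie partly on the same list through Lcn2, summed to 2.99 to 10.9 CPM in the deletions and 2.61 to 5.49 CPM in the controls; their part in the list was not tested.

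The promoter of Ankrd1 is shown as that of the abundant stress gene (RefSeq, GRCm38.p6, chr19:36119795-36120094, minus strand, 250 bases before to 50 after the start). Capitals mark GGAATG, the reverse complement of CATTCC, the MCAT element of muscle genes, at -210 to -205 and at -123 to -118.
Ankrd1: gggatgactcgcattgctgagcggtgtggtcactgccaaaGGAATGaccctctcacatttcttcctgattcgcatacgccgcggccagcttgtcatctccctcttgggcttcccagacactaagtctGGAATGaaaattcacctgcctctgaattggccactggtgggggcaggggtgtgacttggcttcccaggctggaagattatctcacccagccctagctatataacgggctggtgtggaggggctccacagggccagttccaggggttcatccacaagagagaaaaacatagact
CATTCC on either strand was in 14.7% of all windows. Counted by gene, it was in 14.8% of genes tested that had a window. The same count gave 9 of the 38 called genes with a window (23.7%), Thbs4, Igsf1 and Zcchc3 among them.

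Among genes of protein folding in the endoplasmic reticulum, Manf and Hyou1 fell. Of 24 genes of the unfolded protein response and folding list, 2 fell, none rose, and 22 had a negative value, with a median of -0.09. An unadjusted p under 0.05 was found for 11 of the 24. Over all genes tested, 0.406% were called, 52.1% had a negative value and 9.16% an unadjusted p under 0.05. Manf (chr9:106838312-106891979, minus strand) encodes a small secreted protein induced by stress of the endoplasmic reticulum. Its level was 42.2, 55 and 68.2 CPM in the deletions and 51.6, 77.9 and 91.2 CPM in the controls, which overlapped. It fell by 0.37 on the log2 scale (SE 0.069, adjusted p = 0.00687). Its span overlaps that of Rbm15b on the same strand. Hyou1, a chaperone of the endoplasmic reticulum, had 27.6, 37.1 and 45.7 CPM in the deletions and 31, 42.5 and 53.7 CPM in the controls, and fell by 0.23 (SE 0.0435, adjusted p = 0.00687). Values next in order were those of Syvn1, a ubiquitin ligase of the endoplasmic reticulum (-0.19, adjusted p = 0.074), Hspa5, the chaperone BiP (-0.23, adjusted p = 0.113), and the transcription factor Xbp1 (-0.17, adjusted p = 0.187). The calls rested on the control chosen: against FKl/l alone neither Hyou1 (adjusted p = 0.449) nor Manf (adjusted p = 0.497) was called, and against MHC CRE Only alone 5 list members were. Manf averaged 64.2 CPM ± 14 for FKl/l and 80.7 CPM ± 11.8 for MHC CRE Only, the controls, and 56.9 CPM ± 9.84 for FKl/l MCK+ and 53.9 CPM ± 8.54 for FKl/l MHC+ (SD, n = 6 each).

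An element of some promoters of this list is shown in Hspa5, whose own change did not pass the test (RefSeq, GRCm38.p6, chr2:34771840-34772139, plus strand, 250 bases before to 50 after the start). Capitals mark the endoplasmic reticulum stress element, CCAAT and CCACG set 9 bases apart, at -65 to -47.
Hspa5: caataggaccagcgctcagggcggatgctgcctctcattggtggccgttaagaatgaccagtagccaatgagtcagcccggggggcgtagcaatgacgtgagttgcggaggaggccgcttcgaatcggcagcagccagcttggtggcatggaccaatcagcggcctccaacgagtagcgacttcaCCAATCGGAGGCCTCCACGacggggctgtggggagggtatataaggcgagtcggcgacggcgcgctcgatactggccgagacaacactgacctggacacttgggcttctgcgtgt
On either strand the element was in 0.119% of all windows. Counted by gene, it was in 0.156% of the 11502 genes tested that had a window. The same count gave 8 of the 21 list genes with a window (38.1%), Hspa5, Hsp90b1, Calr, Canx, Pdia6, Dnajc3, Creld2 and Syvn1. None of the 38 called genes with a window had it, and Manf and Hyou1 are not among those 38.

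Of 27 genes of branched-chain amino acid breakdown, 1 fell, against 0.15% of all genes tested. Bcat2, the mitochondrial aminotransferase that starts branched-chain amino acid breakdown, had 46, 59.9 and 75.5 CPM in the deletions and 56, 72.3 and 85.8 CPM in the controls, and fell by 0.25 (SE 0.0579, adjusted p = 0.0459). In that list 25 of the 27 had a negative value, 10 with an unadjusted p under 0.05, for a median of -0.09. Over all genes tested, 52.1% had a negative value and 9.16% an unadjusted p under 0.05. The dehydrogenases Ivd (-0.27, adjusted p = 0.0755), Bckdhb (-0.22, adjusted p = 0.0929) and Bckdha (-0.23, adjusted p = 0.109) came next. The call of Bcat2 was lost in 18 of 24 leave-one-out fits. Without the 3 libraries above, 3 members of the list were called. Outside the list, both alanine aminotransferases fell, cytosolic Gpt by 0.27 (SE 0.0536, adjusted p = 0.0105) and mitochondrial Gpt2 by 0.23 (SE 0.0506, adjusted p = 0.0312). So did Aldh4a1 of proline breakdown (by 0.24, adjusted p = 0.034) and Gcdh of lysine breakdown (by 0.18, adjusted p = 0.0486). Gpt2, Aldh4a1 and Gcdh are named here after their values were seen. Their calls were lost under the replicate block and in 13 (Gpt2), 15 (Aldh4a1) and 18 (Gcdh) of 24 leave-one-out fits, and that of Gcdh also with limma voom.

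In other fuel pathways, Ucp2, a carrier of the inner mitochondrial membrane, rose from a control mean of 141 CPM ± 35 to 196 CPM ± 48 (SD, n = 12 each). The log2 fold change was 0.46 (SE 0.0639, adjusted p = 0.000146), and FKl/l MHC+ had 235 CPM where FKl/l MCK+ had 156 CPM. It was the 1 called of 36 genes of fatty acid oxidation (median -0.04), against 0.406% of all genes tested. Ucp2 was not called against MHC CRE Only alone (adjusted p = 0.139). Of 30 genes of glucose use, Pygb (a glycogen phosphorylase, described with its neighbours on chromosome 2 below) and Pfkfb1 were called lower. Over all genes tested, 0.15% were called lower. Without the 3 libraries above, 3 of the 30 were called. Pfkfb1, which makes and degrades the glycolytic regulator fructose 2,6-bisphosphate, fell by 0.67 (SE 0.154, adjusted p = 0.0459), a call kept in 4 of 24 leave-one-out fits. Slc2a12, the glucose transporter GLUT12, fell by 0.42 (SE 0.073, adjusted p = 0.00246). All 28 genes of the tricarboxylic acid cycle list had a negative value (median -0.07), against 52.1% of all genes tested. None of the 28 was called by edgeR (3 at an unadjusted p under 0.05) or limma voom. DESeq2 called Pdp2, a pyruvate dehydrogenase phosphatase. The 44 nuclear genes of the respiratory chain had a median of 0.00, with none called by edgeR (0 by DESeq2 and 0 by limma voom, 1 at an unadjusted p under 0.05).

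Several called genes encode ligands, receptors or guidance proteins, which no list covered as a group. Efnb3 (chr11:69554092-69560205, minus strand), the membrane ligand ephrin-B3, had 31.8, 44.3 and 65 CPM in the deletions and 59.7, 67.9 and 91.7 CPM in the controls. All FKl/l MHC+ libraries were below every control, and 2 of FKl/l MCK+ were inside the control range. It fell by 0.59 (SE 0.0727, adjusted p = 3.62e-05). Ephb3, a receptor for B-type ephrins named after its values were seen, rose by 0.34 (SE 0.0781, adjusted p = 0.0466), a call lost in 17 of 24 leave-one-out fits. The Wnt receptor Fzd2 (chr11:102604396-102608058, plus strand) had 10.4, 17.9 and 25.6 CPM in the deletions and 7.5, 11.4 and 15 CPM in the controls, with every FKl/l MHC+ library above every control. It rose by 0.61 (SE 0.0753, adjusted p = 2.89e-05). Ntn1, the guidance protein netrin 1, fell by 0.36 (SE 0.0663, adjusted p = 0.0051), with -0.34 and -0.39 in the 2 matched pairs.

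In the extracellular matrix list (49 genes, median 0.05) 2 genes rose, against 0.256% of all genes tested. Thbs4, the matricellular protein thrombospondin 4, had 6.61, 8.55 and 12.6 CPM in the deletions and 4.08, 5.45 and 10.3 CPM in the controls, and rose by 0.60 (SE 0.101, adjusted p = 0.00211), FKl/l MHC+ averaging 11.2 CPM ± 1.31 and FKl/l MCK+ 7.08 CPM ± 0.325 (SD, n = 6 each). Fbln1, the matrix protein fibulin 1, rose by 0.29 (adjusted p = 0.0468), with the opposite order: FKl/l MCK+ averaged 178 CPM ± 7.51 and FKl/l MHC+ 133 CPM ± 21.4. Its call was lost without the 3 libraries and in 19 of 24 leave-one-out fits. Fbln1 was the 1 called of 15 fibroblast markers, whose sum was 1610 to 2430 CPM in the deletions and 1680 to 2090 CPM in the controls; their part in the result was not tested. Fbn2, the microfibril protein fibrillin 2, outside the naming rule, rose by 0.81 (SE 0.16, adjusted p = 0.0116) from a mean of 1.28 CPM in each control; the deletion libraries had 1.31, 2.09 and 3.43 CPM (lowest, median and highest).

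Other named genes rose or fell with less clear membership in a list. Igsf1, an immunoglobulin-domain membrane protein, rose by 0.40 (SE 0.0643, adjusted p = 0.00105), from 19 CPM in each control to 25.8 CPM ± 3 (FKl/l MCK+) and 24.7 CPM ± 4.66 (FKl/l MHC+; SD, n = 6 each). Fam78a rose by 0.36 (SE 0.0603, adjusted p = 0.00174), to 25.9 CPM in each deletion genotype. Cpne5, a copine, a family of calcium-dependent phospholipid-binding proteins, rose by 0.58 (SE 0.0918, adjusted p = 0.001), with means of 9.8 CPM ± 1.6 (FKl/l MCK+) and 7.37 CPM ± 1.9 (FKl/l MHC+; adjusted p of the difference 0.089); against MHC CRE Only alone it was not called (adjusted p = 0.126). The cadherin Cdh22 rose by 0.98 (adjusted p = 0.00333) and the docking protein Dok5 by 0.88 (adjusted p = 0.00193). The ubiquitin ligase Lnx1 rose by 0.49 (adjusted p = 0.00174) and the immediate early gene Arc by 0.63 (adjusted p = 0.00802). Dok5 was not called against FKl/l alone (adjusted p = 0.0791). Neither Lnx1 (adjusted p = 0.0881) nor Arc (adjusted p = 0.115) was called against MHC CRE Only alone. Lower were Abca4, a lipid transporter, by 0.77 (adjusted p = 0.000568), Stum by 0.47 (adjusted p = 0.0131), Nrn1, neuritin, by 0.45 (adjusted p = 0.0305), Ung, the uracil DNA glycosylase, by 0.31 (adjusted p = 0.0288), and Qsox2, a sulfhydryl oxidase, by 0.29 (adjusted p = 0.0486). The calls of Nrn1, Ung and Qsox2 were lost in 8, 10 and 19 of 24 leave-one-out fits and against either control alone. That of Nrn1 was also lost under the replicate block (adjusted p = 0.0662), and that of Qsox2 with limma voom (adjusted p = 0.0712). Dmd, which encodes dystrophin, fell by 0.27 (SE 0.053, adjusted p = 0.0116), but FKl/l MCK+ at 34.8 CPM ± 2.23 lay between FKl/l at 35.9 CPM ± 4.25 and MHC CRE Only at 28.5 CPM ± 2.97, and FKl/l MHC+ had 20.3 CPM ± 2.63 (SD, n = 6 each). The deletions differed in Dmd by -0.78 (adjusted p = 7.45e-07), and it was not called against MHC CRE Only alone (adjusted p = 0.552).

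The remaining called genes include 8 with predicted names. Gm30735 and Gm10727 are neighbours on the same strand of chromosome 3 (log2 fold changes 0.87 and 0.96), and 2010001K21Rik and Gm5790 overlap on opposite strands of chromosome 13 (0.61 and 0.92), so that members of a pair may share reads. In all, 29 of the 65 overlap an annotated gene on the opposite strand, Masp1, Casq1, Hamp and Ucp2 among them. The share over all genes tested was not counted. Masp1 and Ucp2 overlap protein-coding genes (Rtp4 and Dnajb13), Casq1 an antisense transcript and Hamp a long noncoding RNA. The kit keeps strand, and the sources used here do not give the strand setting of the counting.

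The pooled value is the mean of 2 matched pairs that share no library: FKl/l MHC+ against MHC CRE Only, with the same Cre on both sides, and FKl/l MCK+ against FKl/l, with the same floxed allele on both sides. In the first pair the deletion and the floxed allele cannot be told apart, and in the second the deletion and the muscle creatine kinase Cre. The sign was the same in both pairs in 62 of the 65. The 65 were selected on the mean of the pairs, which favours a shared sign, so this count is no separate check. The larger size was in the pair of FKl/l MHC+ for 52, with a median size of 0.58 there and 0.31 in the other pair. Over all genes tested, the SD of the log2 fold change was 0.307 in the pair of FKl/l MHC+ and 0.262 in the other. Alone, the first pair called 299 genes (1.87%), of which 50 were called in the pooled contrast and 249 (83.3%) were not. The second pair called 8 genes (0.0499%), all 8 called in the pooled contrast. In both pairs the calls held for Fkbp1a, Kcne1, Masp1 and Cntn2. Called in neither pair were 11 genes, Ntn1, Nrn1, Bcat2, Pfkfb1 and Qsox2 among the named ones. Set against both controls, FKl/l MHC+ called 424 genes (2.65%), 62 of the 65 among them, and FKl/l MCK+ 13 genes (0.0812%), 10 of the 65 among them. These contrasts share libraries with the pooled contrast, so the counts are not independent of it. The effects of the pairs differed for 52 of 16018 genes (0.325%), a contrast added after the data were seen, and for 5 of the 65: Ankrd1 (1.19, adjusted p = 0.0137) and Tent5a (0.50, adjusted p = 0.0346), with the larger rise in the pair of FKl/l MHC+, and Zcchc3, Slc52a3 and Pygb, which had opposite signs in the pairs.

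**Figure D3:**
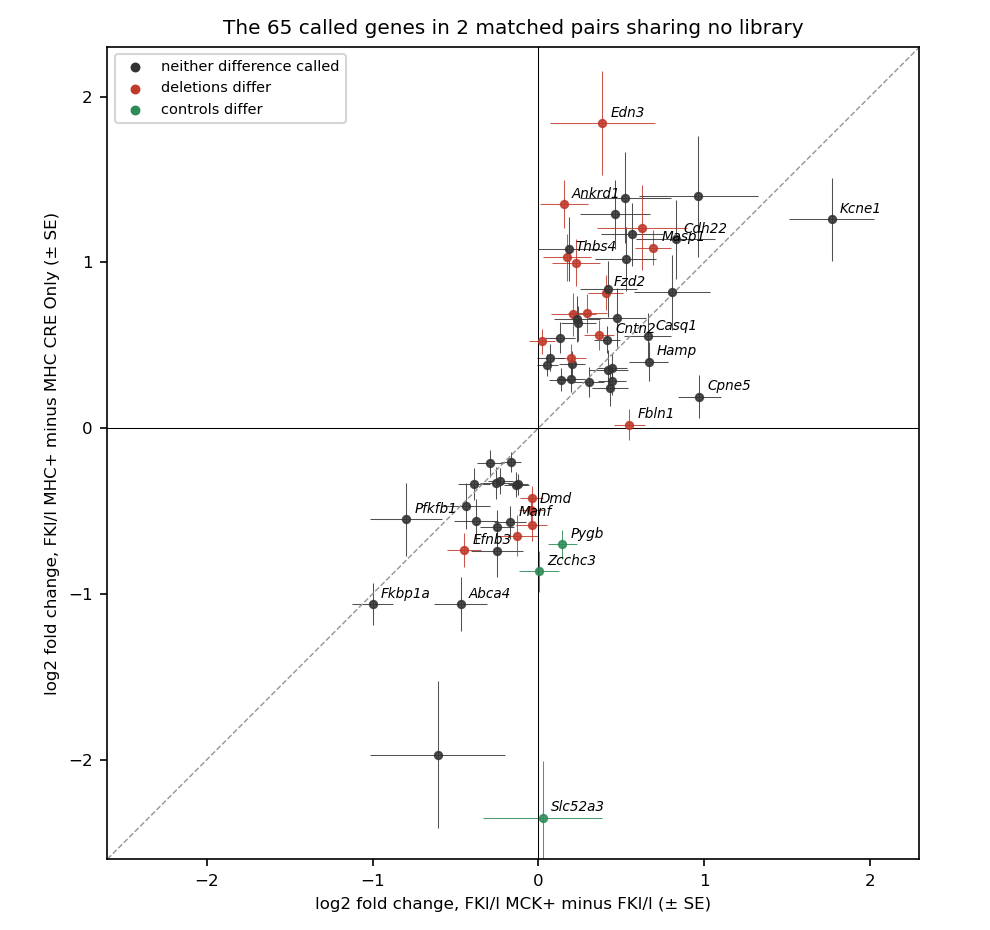
Log2 fold change of the 65 called genes in FKl/l MCK+ against FKl/l (x axis) and in FKl/l MHC+ against MHC CRE Only (y axis), with bars of 1 SE; the dashed line marks equal values. Red points are genes called between the deletions, green points those called between the controls, black points neither; Fkbp1a (at the lower left) and Kcne1 (1.77 and 1.26) lie near the line and Ankrd1 (0.15 and 1.35) far above it.

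Set against each other directly, FKl/l MHC+ and FKl/l MCK+ differed in 345 of 16018 genes (2.15%) and in 18 of the 65. The count of 345 fell to 143, 163 or 167 when FKl/l MHC+ 2-3, 1-3 or 1-2 was left out, and to 172, 214 or 224 when FKl/l MCK+ 1-1, 1-3 or 1-2 was. In 17 of the 18 the change was larger in FKl/l MHC+, and Fbln1 was the exception. For the other 47 a difference was not called, which does not show that the deletions act alike. The 95% intervals of the log2 difference were -0.16 to 0.31 for Hamp, -0.19 to 0.38 for Casq1, -0.25 to 0.12 for Igsf1 and -0.17 to 0.18 for Fam78a.

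The controls differed from each other in 7 genes (0.0437%), 3 of them among the 65, and those 3 lie beside Fkbp1a on chromosome 2. Slc52a3, a riboflavin transporter, 0.435 Mb from Fkbp1a, averaged 0.302 CPM ± 0.121 for FKl/l, 1.41 CPM ± 0.283 for MHC CRE Only, 0.3 CPM ± 0.146 for FKl/l MCK+ and 0.28 CPM ± 0.12 for FKl/l MHC+ (SD, n = 6 each). Pygb, the brain form of glycogen phosphorylase, had 554, 882, 609 and 547 CPM in the same order, and Zcchc3, a zinc finger protein, 4.19, 7.36, 4.22 and 4.03 CPM. For all 3 genes the genotype without the floxed allele stood apart, and the 3 genotypes with it were close. Pooled, Slc52a3 fell by 1.16 (adjusted p = 0.0249), Zcchc3 by 0.43 (adjusted p = 0.0131) and Pygb by 0.28 (adjusted p = 0.0334). With FKl/l as the only control their log2 fold changes were -0.04, -0.03 and 0.07, and none was called. Within 5 Mb of Fkbp1a 107 other genes were tested, of which 3 were called pooled (2.8%), and 6 of the 7 genes that differed between the controls lie there, with Rem1, Asxl1 and 6820408C15Rik beside these 3. The library of low Fkbp1a, MHC CRE Only 1-3, had 855 CPM of Pygb, 0.992 CPM of Slc52a3 and 5.31 CPM of Zcchc3.

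**Figure D4:**
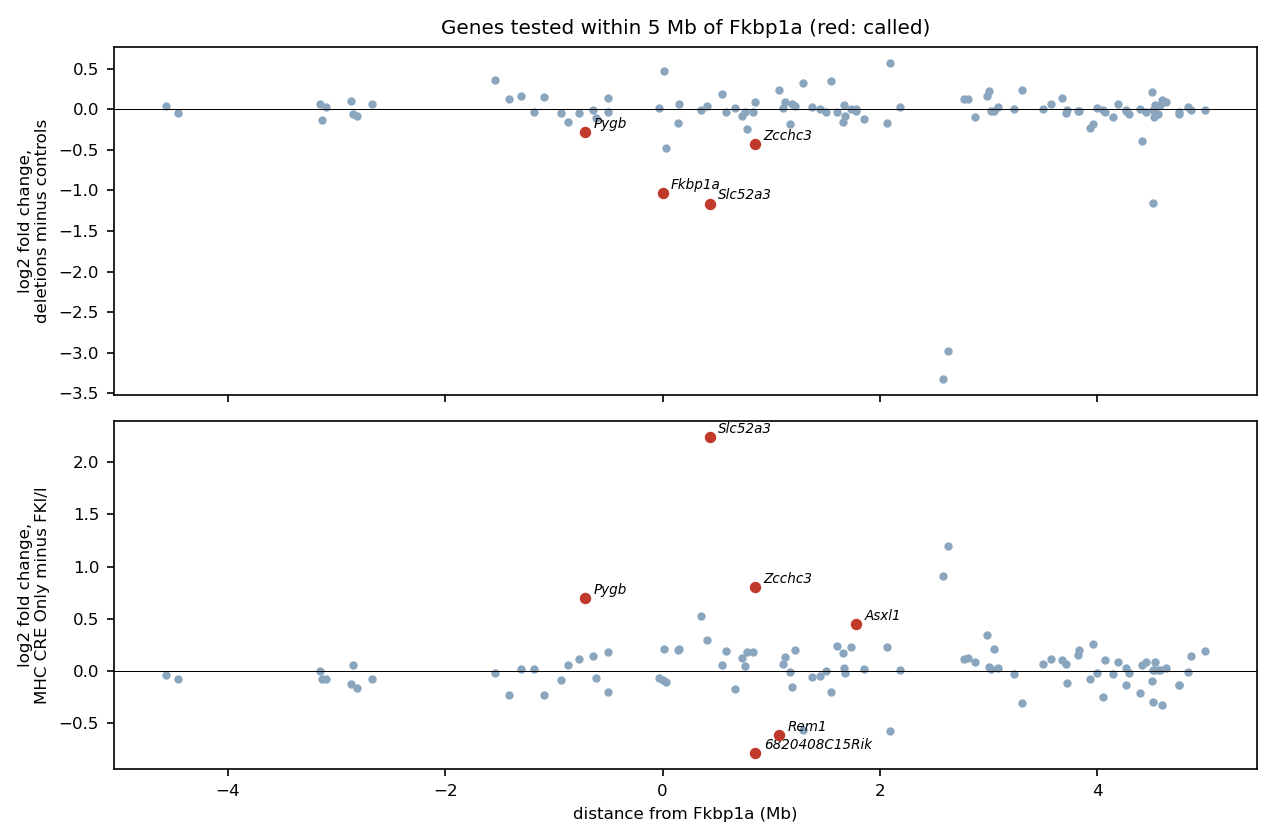
Log2 fold change (y axes) of genes within 5 Mb of Fkbp1a by distance from it (x axis, Mb), in deletions minus controls above and MHC CRE Only minus FKl/l below, with called genes in red. Slc52a3, Zcchc3 and Pygb are called in both panels with opposite signs; the 2 lowest points of the upper panel are the airway genes Bpifa1 and Bpifb1, which were not called.

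Fewer of the 65 were called with a single control genotype. With FKl/l alone as the control 27 of the 65 were called, with MHC CRE Only alone 30, and with each of them 11: Fkbp1a, Masp1, Kcne1, Cntn2, Efnb3, Fzd2, Ankrd1, Abca4, Igsf1, Cdh22 and Gm30735. All others lost the call with at least 1 control genotype, Ntn1, Thbs4, Gpt, Slc2a12, Fam78a, Dok5, Lnx1, Arc and Stum among them. Of these others, 19 were called with neither. Among those were Edn3, Nrn1, Fstl3, Fbln1, Fbn2, Ung, Qsox2, Gcdh, Gpt2 and Pmepa1. Edn3 had log2 fold changes of 1.06 against FKl/l alone and 1.16 against MHC CRE Only alone, and Nrn1 had -0.43 and -0.47, close to their pooled values. Fstl3 had 0.52 and 0.38, with a pooled value of 0.45. Without the 3 libraries above, 94 genes were called, 59 of the 65 among them. The other 6 of the 65 were Fbln1, Lsp1, Slc22a3, Prkcq, Uba6 and D830024N08Rik. No gene passed the test of a difference in the pooled effect between batches (0 of 16018, 0%, by edgeR, and 0 by limma voom), with 1491 at an unadjusted p under 0.05. Fitted alone, batch 1 called 10 genes and batch 2 108, and Efnb3, Masp1 and Fzd2 were called in each. Neither Fkbp1a (log2 fold change -0.89, adjusted p = 0.109) nor Kcne1 (adjusted p = 0.225) was called in batch 1 alone, which holds the library of low Fkbp1a.

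The mTOR, calcineurin and Notch lists, drawn up for known partners of FKBP12 or its heart phenotypes, gave no call. Over all genes tested, 0.406% were called and 9.16% had an unadjusted p under 0.05. A positive value was found for 47.9% and a negative one for 52.1%. Of 32 genes of the mTOR pathway none was called (0 by DESeq2 and 0 by limma voom, 3 at an unadjusted p under 0.05; median -0.01), of 18 of calcineurin and NFAT none (0 by DESeq2 and 0 by limma voom, 1 at an unadjusted p under 0.05; median 0.01), and of 22 of the Notch pathway none (0 by DESeq2 and 0 by limma voom, 2 at an unadjusted p under 0.05; median -0.06). In the sarcomere and Z-disc list, 0 of 34 were called (0 by DESeq2 and 0 by limma voom, 3 at an unadjusted p under 0.05; median 0.06). The p53 targets gave 0 of 29 (2 by DESeq2 and 1 by limma voom, 2 at an unadjusted p under 0.05), with Perp at 0.25 (adjusted p = 0.05) and Cdkn1a, the cell cycle inhibitor p21, at 0.56 (adjusted p = 0.0527) just above the threshold. Interferon response genes gave 0 of 36 (0 by DESeq2 and 0 by limma voom, 0 at an unadjusted p under 0.05), with 31 negative and a median of -0.07. Of 31 cell cycle genes none was called (0 by DESeq2 and 0 by limma voom, 4 at an unadjusted p under 0.05), 26 were positive and the median was 0.09. Of 15 FKBP family genes tested, Fkbp1a was the 1 called, and Fkbp5, a stress-induced FKBP, had 0.29 (adjusted p = 0.663).

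**Figure D5:**
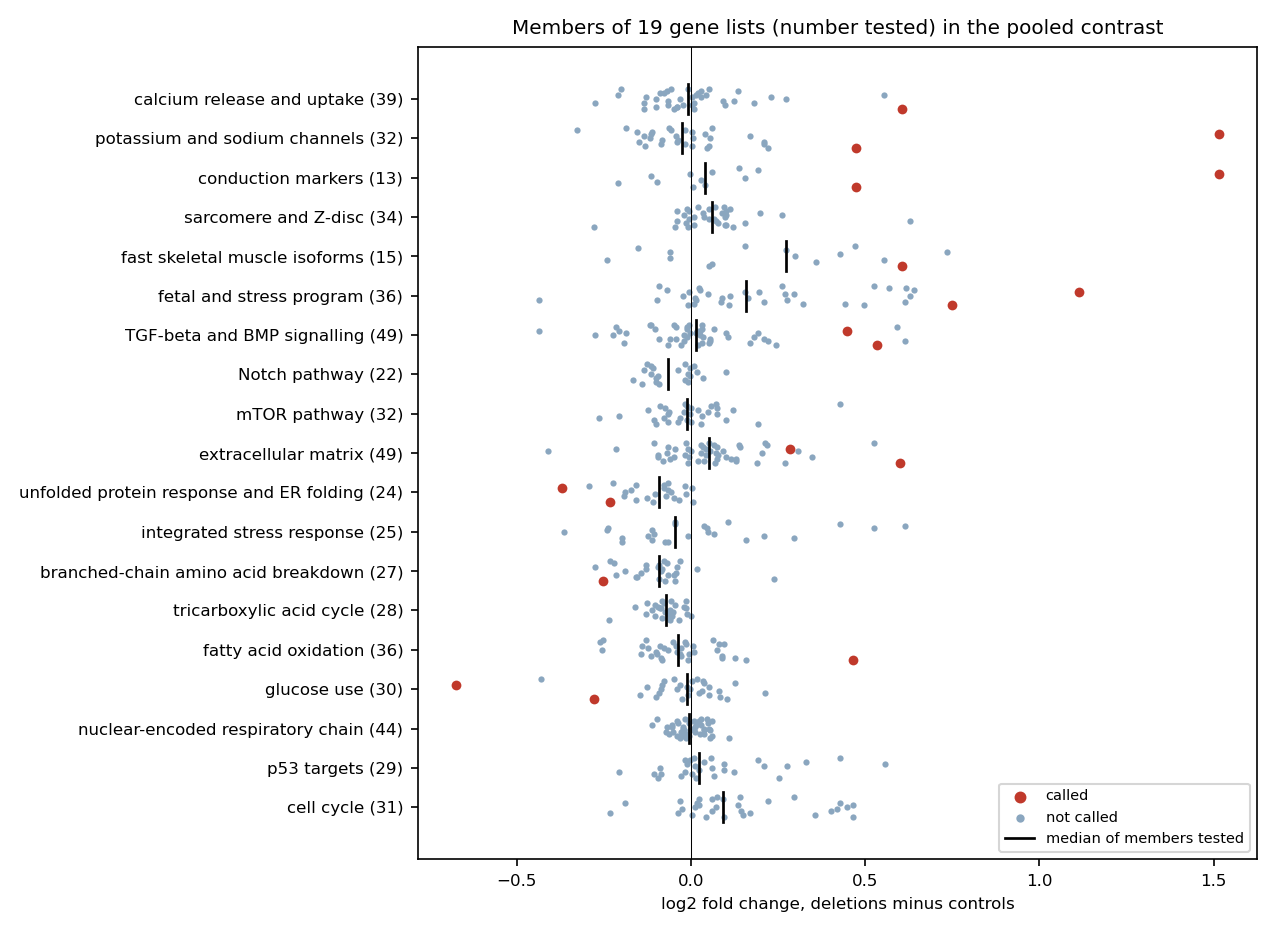
Log2 fold change (deletions minus controls, x axis) of each tested member of 19 gene lists (rows, with the number tested), called members in red, others in blue, and the median as a black bar. Medians of most lists lie within 0.1 of 0; fast skeletal muscle isoforms (0.27) and the fetal and stress program (0.16) are the farthest to the right, and protein folding (-0.09), branched-chain amino acid breakdown (-0.09) and the tricarboxylic acid cycle (-0.07) lie on the left.

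Markers of erythroid, fat, macrophage and endothelial cells were not called. Over all genes tested, 47.9% had a positive value, 52.1% a negative one and 9.16% an unadjusted p under 0.05. The 9 erythroid markers tested were all positive (median 0.22, 6 at an unadjusted p under 0.05, none called; 0 by DESeq2 and 0 by limma voom), with sums of 7810 to 14200 CPM in the deletions and 7250 to 11300 CPM in the controls. All 14 adipocyte markers were negative (median -0.65, 2 at an unadjusted p under 0.05, none called; 0 by DESeq2 and 0 by limma voom), with 277 to 713 CPM and 327 to 910 CPM. Of 19 macrophage markers 17 were positive (median 0.13, 4 at an unadjusted p under 0.05, none called; 0 by DESeq2 and 0 by limma voom), with 220 to 293 CPM and 202 to 276 CPM. The 18 endothelial markers had a median of 0.00 with none called (1 at an unadjusted p under 0.05; 0 by DESeq2 and 0 by limma voom), and 8 of them were called lower in FKl/l MHC+ than in FKl/l MCK+, against 187 of all genes tested (1.17%). Their part in the results above was not tested.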

How the data were processed

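RNA-seq of 24 whole-heart libraries was analysed. The authors deposited a table of raw counts per Ensembl gene, whole numbers that are not normalized. Per the labels' protocols, RNA was extracted in TRIzol and libraries were made with the NEBNext Ultra II Directional kit, which keeps strand. Per the submitters' processing notes bcl2fastq 2.17, FastQC and Trim Galore were used together with STAR, RSEM and build mm10. The sources used here do not give the role of each tool, the strand setting or any rounding of RSEM estimates. Such estimates divide reads that match several near-identical genes. Of the 56384 rows, 3660 carry a transcript name without a gene. These held 0.873 to 4.28% of a library's counts and were left out.

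From the counts, edgeR 4.0.16 (limma 3.58.1, R 4.3.3) was run on all 24 libraries after filterByExpr by genotype, which kept at least 99.89% of each library's counts, with scaling by the trimmed mean of M values (TMM), terms for genotype and batch, and robust quasi-likelihood F-tests. The contrast was the mean of FKl/l MCK+ and FKl/l MHC+ minus the mean of FKl/l and MHC CRE Only. A gene was called at a 2-sided p under 0.05 after Benjamini-Hochberg adjustment over all genes tested, with no minimum fold. Differences between the deletions and between the controls came from contrasts of the same fit. The difference in the pooled effect between batches, and its values within each batch, came from a fit with a term for each genotype in each batch. Levels are CPM on TMM-scaled library sizes, and a log2 fold change is deletions minus controls unless another is named. The script was tested on simulated data. Alternatives included DESeq2 1.42.0 and limma voom.

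The genes, lists and rules were chosen with earlier results of these data known. Named were Fkbp1a and Fkbp1b; at most 12 called genes per direction, by fold change, where deletion or control libraries averaged 5 CPM or more, with the same sign in both batches and both matched pairs and no predicted or sex-linked name; 6 further by p; up to 4 called per list; and up to 4 that differed most between deletions or controls. Lists are described by counts and medians. Positions are from GENCODE M21, and promoter sequences from RefSeq; 38 of the 65 called genes had a promoter entry. Libraries of a genotype differed by more than counting noise (chi-square per degree of freedom 8.11 to 150).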

Additional observations from a re-analysis of the deposited data

Results flagged for a closer look

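In 18 of 264 sets of 6 libraries (66 genes in 4 genotypes, 6.82%), the highest or lowest library stood far from the other 5, where chance gives about 1 in 20. The library labelled MHC CRE Only 1-3 was such a library in 5 genes, in each on the side of the deletions, and whether its label is correct was not settled. It was the lowest of its genotype in Fkbp1a (81.8 CPM, next 122 CPM) and Dmd (22.7 CPM, next 28.7 CPM). It was the highest in Masp1 (17.5 CPM, next 12.8 CPM), Lnx1 (9.6 CPM, next 6.78 CPM) and Gm5790 (2.57 CPM, next 1.3 CPM). Without it the pooled contrast called 105 genes in place of 65, and the log2 fold change of Fkbp1a was -1.09.

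FKl/l 1-1, a library with high airway transcripts, stood above its genotype in Thbs4 (10.3 CPM), Edn3 (3.09 CPM) and Nudt18 (23 CPM) and below it in Gcdh (47.5 CPM). FKl/l MCK+ 1-2 was high in Casq1 (26.2 CPM) and Fbn2 (3.43 CPM). FKl/l MHC+ 2-1 was high in Kcne1 (12.9 CPM, next 7.82 CPM) and Pfkfb1 (3.28 CPM), FKl/l MHC+ 2-3 in Fzd2 (25.6 CPM) and FKl/l MHC+ 1-3 in Dok5 (2.27 CPM). MHC CRE Only 1-2 was high in Cdh22 (4.85 CPM) and low in Slitrk4 (0.535 CPM), and MHC CRE Only 2-3 was low in Gm49891 (0.644 CPM).

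Of the named genes 12 differed between the deletions. The log2 difference, FKl/l MHC+ minus FKl/l MCK+, was positive for Edn3 (1.36, adjusted p = 0.0199), Ankrd1 (1.04, adjusted p = 0.000238), Thbs4 (0.654, adjusted p = 0.0123), Fstl3 (0.62, adjusted p = 0.0106), Ucp2 (0.597, adjusted p = 0.000472), Fzd2 (0.592, adjusted p = 0.00244), Lnx1 (0.587, adjusted p = 0.0058) and Masp1 (0.546, adjusted p = 0.00466). It was negative for Dmd (-0.779, adjusted p = 7.45e-07), Ung (-0.559, adjusted p = 0.00191), Efnb3 (-0.434, adjusted p = 0.0237) and Fbln1 (-0.415, adjusted p = 0.0173). Every one but Fbln1 had the larger change in FKl/l MHC+. Fbln1 averaged 178 CPM (FKl/l MCK+), 133 CPM (FKl/l MHC+), 121 CPM (FKl/l) and 131 CPM (MHC CRE Only).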

How the results depend on the processing

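The count of 65 pooled calls moved most with the model and the libraries. It was 143 with DESeq2 (all 65 among them), 32 without the batch term, 30 with 1 term for deletion, 10 against a fold of 1.2, 39 with FKl/l as the control, 10 in batch 1 alone, 108 in batch 2 alone and 105 without the library of low Fkbp1a. Leaving out each library in turn gave 40 to 105, with 40 without FKl/l MHC+ 1-3, 42 without FKl/l 1-2, 43 without FKl/l MCK+ 2-3 and 105 without MHC CRE Only 1-3; 39 genes were called in all 24 fits. Other settings gave 48 to 94 calls. The 345 calls between the deletions became 562 with DESeq2, 103 without the batch term and 720 with the Y-linked level as a covariate, and 143 to 490 when libraries were left out. The 7 between the controls became 15 with no filter, 169 with DESeq2, 4 without the batch term or without the 3 libraries and 0 with the Y-linked level, and 4 to 17 when libraries were left out. Y-linked genes summed to 53.1 to 96.3 CPM across the 24 libraries, with 75.1 to 89.8 CPM in FKl/l and 53.1 to 69.3 CPM in MHC CRE Only. The Y-linked covariate is therefore partly confounded with the control genotype, and that fit cannot separate the 2. Batch dependence stayed at 0, or 1 without FKl/l 1-3 or FKl/l MHC+ 2-1. The log2 fold change of Fkbp1b turned to 0.0169 with FKl/l as the control and 0.00834 in batch 2 alone, and that of Pygb to 0.0728 with FKl/l as the control. Of 1593 values of 38 named genes under alternatives, 1329 kept direction and call, 261 lost the call and 3 turned. The cause was not tested.

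A replicate block by batch and number gave 48 calls, 47 of them among the 65. The numbers gave no sign of a pairing: 0 of 36 same-numbered pairs correlated over 0.1 in their deviations (-0.348 to 0.0979, median -0.0955). Other pairs of libraries across genotypes within a batch had a median of -0.0769. A pairing that leaves no such correlation would not be seen. Among lists, the 2 calls of protein folding became 0 with FKl/l as the control and 5 with MHC CRE Only, and the 1 of branched-chain amino acid breakdown became 0 with limma voom and 5 with DESeq2. Genes under 1 CPM, such as Slc52a3, rest on few counts per library.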
